A study of Mus musculus with 8 samples.

Results

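Epithelial cells that line the bile ducts carry a set of surface proteins that set them apart from the hepatocytes around them, and 9 genes of this set were followed here: Epcam, Tspan8, Cd24a, Prom1, Muc1, Cdh1, Ezr, Ddr1 and Cd9. They were taken by name from a list of bile duct surface genes and matched by symbol to the rows of a liver RNA-seq count table. All 9 were found among its 45706 gene rows, and all 9 were among the 14645 genes with enough reads to be tested. The genes were selected on their counts in WT against KO libraries, a difference known when the list was drawn up, so the values of that comparison are given as a description, with no p-value for any of them. Liver RNA came from 8 C57BL/6 mice, 4 labelled wild type (WT) and 4 labelled knockout (KO) for HuR, the RNA-binding protein encoded by Elavl1, with 1 library per mouse and no treatment named. The sources used here do not give the deleted exons, the cells in which they were deleted, any Cre driver or the age of the mice. The animal numbers in the titles form a pair of series. Animals 98, 99 and 100 are KO replicate 4, KO replicate 3 and WT replicate 3, and the other 5 animals have numbers of 4 digits. The labels do not say what separates these series.

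The ducts make up a small part of the liver, and their epithelium is polarised, with an apical face towards the bile and lateral faces that hold the cells together. EPCAM and E-cadherin (Cdh1) join neighbouring cells. TSPAN8 and CD9 are tetraspanins, small proteins that span the membrane and gather other receptors around them. MUC1 and CD24 carry dense sugar chains, prominin-1 (Prom1) sits on membrane protrusions, ezrin (Ezr) ties the apical membrane to actin from the inside, and DDR1 is a receptor tyrosine kinase that binds collagen. Not all of them are private to ducts: E-cadherin is also made by hepatocytes near the portal tract, and CD9 by many cell types. In RNA from whole liver, more cells of a type and more RNA per cell cannot be told apart.

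Each library held between 18649618 and 31249286 counts in genes. Elavl1 itself showed no lower level under the KO label, at 42.0 ± 6.41 CPM (counts per 1000000 of the library's scaled total) in WT and 50.02 ± 4.33 CPM in KO (SD over 4 animals each). The log2 fold change was 0.25 (SE 0.11). In edgeR's quasi-likelihood test the p was 0.0432 unadjusted and 0.258 after Benjamini-Hochberg adjustment. Why Elavl1 was not lower was not tested. The gene count sums reads over all exons and the deleted exons are not given, so the labels were not checked by it. Directions here are those between libraries as labelled. The mean root-mean-square difference in log2 CPM over all genes tested between WT replicate 3 and the rest of its group was 0.597, and to the KO group it was 0.586, and values without it are given beside the results for the 9 genes and the related lists that had calls. The liver identity of the tissue was clear from the 10 hepatocyte markers, which summed to 126400 to 142200 CPM in the libraries labelled WT and 114200 to 136900 CPM in those labelled KO. Among defining duct markers, Krt7 was at 0.627 ± 0.154 and 3.04 ± 0.911 CPM, Krt19 at 1.40 ± 0.951 and 5.28 ± 1.37 CPM, and Sox9 at 6.41 ± 2.33 and 12.9 ± 2.63 CPM, WT before KO (SD, n = 4 each).

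All 9 surface genes were higher in the libraries labelled KO, from 1.39-fold for Cdh1 to 8.17-fold for Tspan8, and for each of them every KO library lay above every WT library. Such a complete separation held for 6.19% of all genes tested. At an adjusted p under 0.05 the fit over all genes called 2.32% of them higher, and all 9 were among these. The choice of the genes used this same contrast and so fixed both counts, and nothing is read from them. The median log2 fold change was 1.68 for the 9 genes and 0.0 for all genes tested. Without WT replicate 3 the number called was 8 and the median was 1.87, and without WT replicate 2 or KO replicate 4 the number called was 5.

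Epcam (ENSMUSG00000045394, mm10 chromosome 17, 87635979 to 87651106, plus strand, 10 exon blocks) encodes the adhesion molecule most often used to mark bile duct epithelium. Its level was 1.82, 1.23, 3.04 and 1.55 CPM over WT replicates 1 to 4 and 5.88, 7.84, 9.13 and 9.17 CPM over KO replicates 1 to 4. The lowest KO library was 1.94 times the highest WT library, which was WT replicate 3. This gave a log2 fold change of 2.04 (SE 0.26). The other adhesion gene, Cdh1 (ENSMUSG00000000303, chromosome 8, 106603351 to 106670246, plus strand, 16 exon blocks), was at 36.5, 32.6, 46.2 and 48.3 CPM over WT replicates 1 to 4 and at 61.0, 51.7, 55.0 and 59.0 CPM over KO replicates 1 to 4. It was the most abundant of the 9 and the least separated, with KO replicate 2 only 1.07 times WT replicate 4. The log2 fold change of Cdh1 was 0.47 (SE 0.12), and it ranged from 0.30 to 0.56 over the other settings and subsets of libraries tried.

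Tspan8 (ENSMUSG00000034127, chromosome 10, 115817284 to 115849893, plus strand, 8 exon blocks), a tetraspanin of digestive epithelia, had the largest difference. It was at 1.28, 0.575, 1.55 and 0.721 CPM over WT replicates 1 to 4, from 13 to 47 reads, and at 7.55, 6.83, 12.5 and 7.86 CPM over KO replicates 1 to 4, from 195 to 322 reads. KO replicate 3 was well above the other KO libraries, and even the lowest KO library was 4.40 times the highest WT library. Its log2 fold change was 3.03 (SE 0.30). Cd9 (ENSMUSG00000030342, chromosome 6, 125460266 to 125494791, minus strand, 10 exon blocks), the broadly expressed tetraspanin, was at 9.04, 8.38, 11.04 and 9.71 CPM over WT replicates 1 to 4 and at 14.4, 12.5, 17.2 and 15.1 CPM over KO replicates 1 to 4. Its groups were close, with KO replicate 2 at 1.13 times WT replicate 3. For Cd9 the log2 fold change was 0.63 (SE 0.14). Its processed copy Cd9-ps held 0.0365 to 0.348 CPM in all libraries, little beside Cd9 itself.

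Muc1 (ENSMUSG00000042784, chromosome 3, 89229057 to 89233381, plus strand, 7 exon blocks) encodes a membrane mucin of the apical face. It was the rarest of the 9, at 0.474, 0.493, 0.430 and 0.277 CPM over WT replicates 1 to 4, which rests on 13, 12, 13 and 5 reads. In KO replicates 1 to 4 it was at 2.01, 1.49, 2.95 and 3.61 CPM, on 52, 43, 76 and 96 reads. The lowest KO library was 3.02 times the highest WT library, and the log2 fold change was 2.55 (SE 0.37). Cd24a (ENSMUSG00000047139, chromosome 10, 43579169 to 43584262, plus strand, 2 exon blocks) encodes a small glycoprotein held to the membrane by a lipid anchor, found on progenitor cells of the liver as well as on ducts. The WT libraries were the most alike for this gene, at 2.62, 2.55, 3.01 and 2.72 CPM in replicates 1 to 4, a coefficient of variation of 7.37%. KO replicates 1 to 4 were at 6.97, 6.34, 10.9 and 10.9 CPM, 27.9% around their mean, with replicates 3 and 4 above replicates 1 and 2. The log2 fold change of Cd24a was 1.68 (SE 0.21).

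Prom1 (ENSMUSG00000029086, chromosome 5, 43993620 to 44102032, minus strand, 36 exon blocks) encodes prominin-1, also called CD133, a marker of progenitor cells and ducts. Its level was 3.24, 2.92, 2.84 and 1.89 CPM over WT replicates 1 to 4 and 7.97, 5.65, 21.9 and 12.97 CPM over KO replicates 1 to 4. Of the 9 genes it varied most among the KO libraries, by a coefficient of variation of 59.4%, with KO replicate 3 at the top and KO replicate 2 at the bottom. The log2 fold change was 2.14 (SE 0.42), and it was 1.33 among the animals with 4-digit numbers. Ezr (ENSMUSG00000052397, chromosome 17, 6738041 to 6782784, minus strand, 13 exon blocks), whose product ezrin is a linker on the inner side of the membrane and not itself exposed, was at 5.29, 4.52, 7.73 and 6.38 CPM over WT replicates 1 to 4. In KO replicates 1 to 4 it was at 10.2, 12.3, 14.4 and 13.9 CPM, with KO replicate 1 at 1.32 times WT replicate 3. For Ezr the log2 fold change was 1.09 (SE 0.18). Ddr1 (ENSMUSG00000003534, chromosome 17, 35681567 to 35704621, minus strand, 24 exon blocks), the collagen receptor of epithelia, was at 1.39, 2.38, 4.99 and 2.38 CPM over WT replicates 1 to 4 and at 8.40, 5.79, 6.99 and 8.53 CPM over KO replicates 1 to 4. WT replicate 3 lay far above the other WT libraries and close below KO replicate 2, which was 1.16 times as high. The log2 fold change of Ddr1 was 1.40 (SE 0.32), 1.87 without WT replicate 3.

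**Figure D1:**
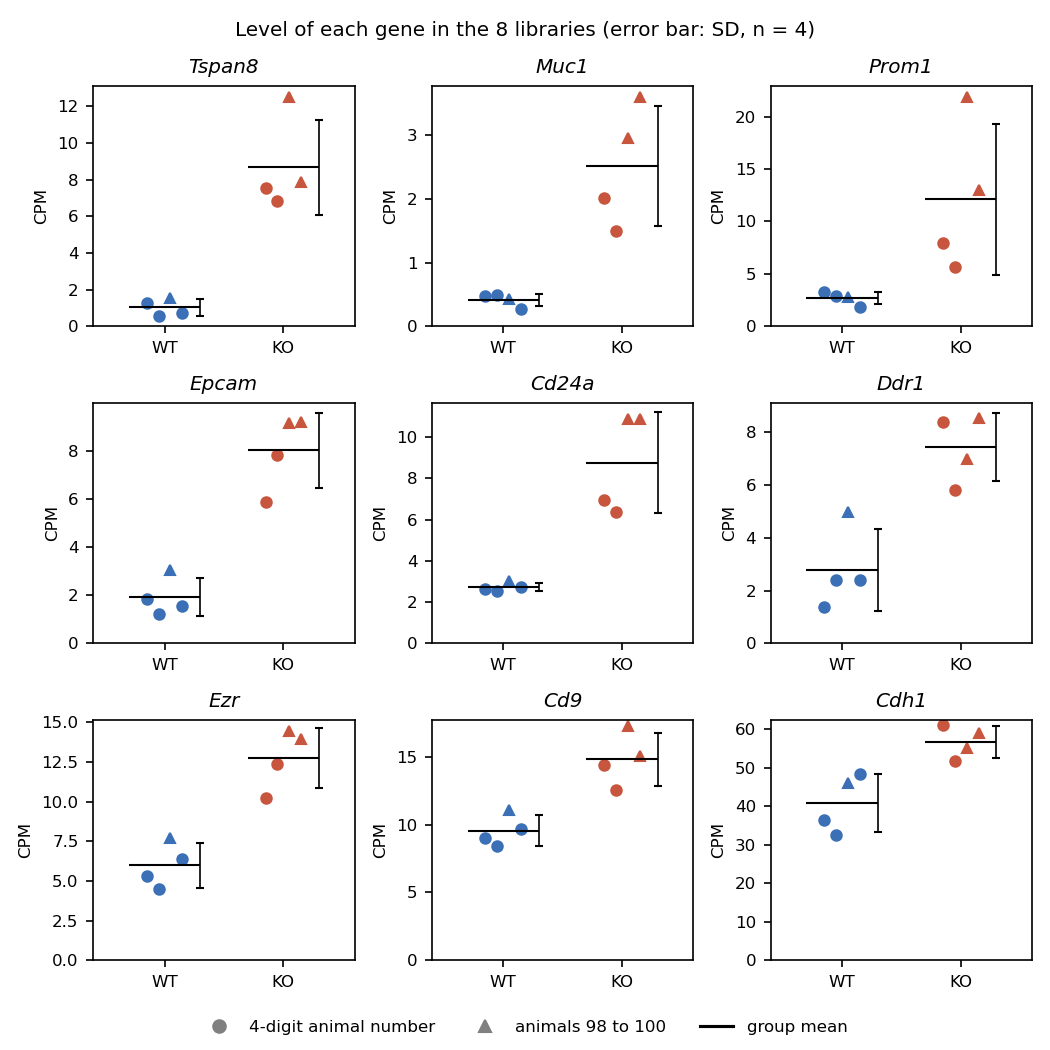
CPM (linear axis from 0) of each of the 9 genes in the libraries labelled WT and KO. Points are libraries, triangles the animals 98 to 100, lines the group means and bars the SD (n = 4). The groups do not overlap in any panel, and by ratio the gap is widest for Tspan8, where KO starts at 6.83 and WT ends at 1.55 CPM, and narrowest for Cdh1.

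Levels of different genes can be compared only per length, so RPKM values (CPM per kilobase of exon) were taken from the same scaled counts. In the libraries labelled WT the order of mean RPKM was Cdh1 (8.94 ± 1.65), Cd9 (4.67 ± 0.555), Ezr (1.82 ± 0.424), Cd24a (1.503 ± 0.111), Epcam (0.937 ± 0.387), Tspan8 (0.678 ± 0.303), Ddr1 (0.584 ± 0.323), Prom1 (0.379 ± 0.0815) and Muc1 (0.178 ± 0.0417), each with its SD over 4 libraries. Of neighbours in that order, Cdh1 and Cd9, Cd9 and Ezr, and Prom1 and Muc1 did not overlap, while the genes from Ezr down to Prom1 overlapped from one to the next. Tspan8 was above Ddr1 in only 1 of 4 WT libraries. In the libraries labelled KO Tspan8 came after 2 genes, at 5.71 ± 1.70 RPKM, behind Cdh1 (12.4 ± 0.903) and Cd9 (7.24 ± 0.957). It was followed by Cd24a (4.83 ± 1.35), Epcam (3.92 ± 0.757), Ezr (3.87 ± 0.576), Prom1 (1.69 ± 1.004), Ddr1 (1.56 ± 0.272) and Muc1 (1.07 ± 0.404), and only Cdh1 and Cd9, and Ezr and Prom1, were neighbours without overlap.

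The differences on this linear scale had another order than the folds. The mean RPKM was higher in the libraries labelled KO by 5.03 (SE 0.862) for Tspan8, 3.46 (SE 0.942) for Cdh1, 3.33 (SE 0.677) for Cd24a, 2.99 (SE 0.425) for Epcam and 2.57 (SE 0.553) for Cd9. It was higher by 2.05 (SE 0.358) for Ezr, 1.31 (SE 0.504) for Prom1, 0.973 (SE 0.211) for Ddr1 and 0.894 (SE 0.203) for Muc1. Cdh1, last by fold, was thus second by the RPKM added. In reads, the 9 genes together took 55.6 to 80.8 CPM in the libraries labelled WT and 111 to 151 CPM in those labelled KO. Cdh1 held 57.1% to 65.3% of that sum in the former and 36.4% to 49.1% in the latter.

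**Figure D2:**
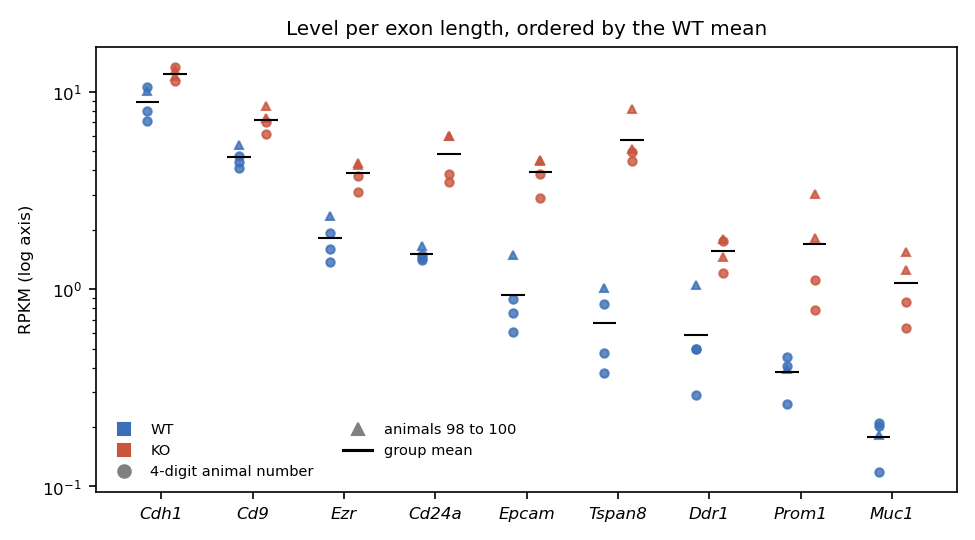
RPKM (log axis) of the 9 genes, ordered by the mean of the libraries labelled WT, with libraries as points (triangles are animals 98 to 100) and group means as lines. Tspan8 moves from 0.678 in WT, below 5 of the genes, to 5.71 in KO, below 2 of them.

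The animal-number series gave a contrast that the choice of genes did not use. With genotype in the model, all 9 genes had a higher estimate in animals 98 to 100 than in the 4-digit animals, where 50.6% of all genes tested did. Cdh1 turned to −0.27 (SE 0.23) when replicate numbers were added as a block. Replicate 4 is the only number whose animals come from different series, so the estimate of that fit rests on it alone. The log2 difference ranged from 0.11 (SE 0.12) for Cdh1 to 0.90 (SE 0.31) for Prom1, with a median of 0.61 for the 9 genes and 0.0 for all genes tested. Epcam had the smallest p, with a log2 difference of 0.63 (SE 0.21), that is 1.55-fold, and an adjusted p of 0.125 in edgeR's quasi-likelihood test. No member passed an adjusted p of 0.05, where 2.41% of all genes tested were called in either direction. At an unadjusted p under 0.05 there were 7 of 9, all but Muc1 and Cdh1, against 9.21% of all genes tested that were higher at that level. DESeq2 called 1 of the 9, Prom1, and limma-voom 0. Within the libraries labelled KO, both animals 98 and 99 were above both 4-digit animals for 7 genes, all but Cdh1 and Ddr1, which held for 22.9% of all genes tested. Within those labelled WT, animal 100, which is WT replicate 3, was the highest for 6 genes, all but Prom1, Muc1 and Cdh1, and this held for 29.5% of all genes tested. These counts all come from the same animals, so the 9 genes are not 9 independent observations.

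**Figure D3:**
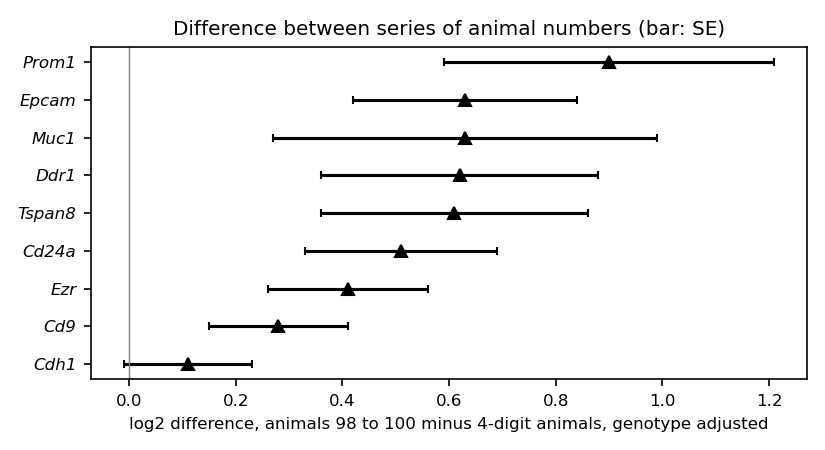
Difference in log2 expression between animals 98 to 100 (3 libraries) and the 4-digit animals (5 libraries), adjusted for genotype, with its SE as a bar. All 9 estimates lie above 0, from 0.11 for Cdh1 to 0.90 for Prom1, and none passed the adjusted test. With a replicate block, where only replicate 4 spans both series, Cdh1 turned to −0.27.

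The genotype difference had the same direction within both series for all 9 genes. As every KO library lay above every WT library for each gene, this was fixed in advance, and nothing is read from it. Among the 4-digit animals (3 WT, 2 KO) the log2 fold changes were 3.04 for Tspan8, 2.16 for Epcam, 2.04 for Muc1, 1.80 for Ddr1, 1.34 for Cd24a, 1.33 for Prom1, 1.07 for Ezr, 0.58 for Cd9 and 0.53 for Cdh1. Among animals 98 to 100, where WT is 1 library, they were 2.92 for Muc1, 2.70 for Tspan8, 2.61 for Prom1, 1.85 for Cd24a, 1.58 for Epcam, 0.87 for Ezr, 0.63 for Ddr1, 0.55 for Cd9 and 0.30 for Cdh1. Prom1 had the larger estimate among animals 98 to 100 and Ddr1 among the 4-digit animals. The difference between the series' effects was 1.30 (SE 0.48) for Prom1 and −1.16 (SE 0.45) for Ddr1 on the log2 scale. With edgeR's quasi-likelihood test of the interaction the adjusted p was 0.671 and 0.690, and 0 of the 9 genes passed, where 0.0205% of all genes tested did. At an unadjusted p under 0.05 these 2 genes passed, where 6.40% of all genes tested did, and no other tool was run on the interaction.

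**Figure D4:**
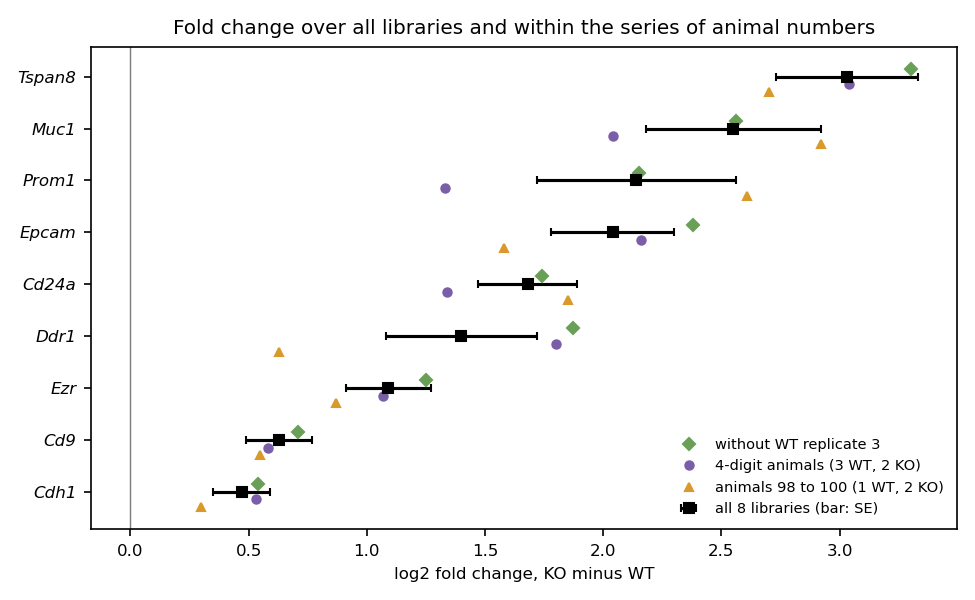
Log2 fold change, KO minus WT, of each gene over all 8 libraries (squares, bar SE), without WT replicate 3 (diamonds), among the 4-digit animals (circles) and among animals 98 to 100 (triangles). All values lie above 0, which the complete separation of the groups fixed in advance. Prom1 spreads from 1.33 to 2.61 and Ddr1 from 0.63 to 1.87.

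Promoter windows of 300 bases, from 250 before to 50 after the start site, were read from RefSeq on GRCm38.p6 (the assembly of mm10) for Epcam, Tspan8, Prom1, Muc1, Ezr, Ddr1 and Cd9. Ddr1 has 4 windows and Prom1 2, which makes 11 in all. Those of Tspan8, Muc1, Prom1 and Epcam are shown because these genes had the largest fold changes, and Prom1 by its upstream window. Capitals mark matches on either strand to any of 7 motifs. They are the GC box, spelt GGGCGG, and the E-box, spelt CACCTG, which ZEB and Snail repressors of epithelial genes bind. The motif of TEAD factors was spelt GGAATG, and that of the grainyhead-like factors of epithelia was spelt AACCNGTT. The HNF1 half-site was spelt GTTAAT and the TATA box was spelt TATAAA. The motif of AP-1 was spelt TGANTCA.
Tspan8 (chr10:115817034-115817333, plus strand): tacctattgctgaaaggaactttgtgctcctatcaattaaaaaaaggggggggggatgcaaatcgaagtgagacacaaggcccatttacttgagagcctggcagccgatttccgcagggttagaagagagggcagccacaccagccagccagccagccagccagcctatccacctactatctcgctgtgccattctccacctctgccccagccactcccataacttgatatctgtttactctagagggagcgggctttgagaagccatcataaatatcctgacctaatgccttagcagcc
Muc1 (chr3:89228806-89229105, plus strand): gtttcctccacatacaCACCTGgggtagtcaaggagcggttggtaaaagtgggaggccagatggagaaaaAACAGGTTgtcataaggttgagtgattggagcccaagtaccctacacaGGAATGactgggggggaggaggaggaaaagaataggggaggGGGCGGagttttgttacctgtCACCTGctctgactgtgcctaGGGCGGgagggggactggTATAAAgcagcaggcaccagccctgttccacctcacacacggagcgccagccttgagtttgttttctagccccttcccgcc
Prom1 (chr5:44101687-44101986, minus strand): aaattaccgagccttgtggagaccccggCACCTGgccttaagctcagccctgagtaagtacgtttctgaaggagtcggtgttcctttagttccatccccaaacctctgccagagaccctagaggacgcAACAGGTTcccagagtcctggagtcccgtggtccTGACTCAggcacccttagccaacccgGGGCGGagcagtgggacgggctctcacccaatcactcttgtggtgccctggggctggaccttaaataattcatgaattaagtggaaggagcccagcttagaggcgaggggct
Epcam (chr17:87635729-87636028, plus strand): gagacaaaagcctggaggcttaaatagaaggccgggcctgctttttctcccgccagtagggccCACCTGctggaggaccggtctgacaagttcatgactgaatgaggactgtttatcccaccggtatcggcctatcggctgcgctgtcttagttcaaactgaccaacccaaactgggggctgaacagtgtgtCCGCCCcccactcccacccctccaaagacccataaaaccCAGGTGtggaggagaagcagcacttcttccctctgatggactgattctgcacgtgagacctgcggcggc
No marked match overlaps another in these windows. The Tspan8 window, the one with the largest fold change, holds none of the 7 motifs, so it is printed without capitals. The Muc1 window holds the most, among them a TATA box that starts 31 bases before the start site and the grainyhead motif. That motif was also present in both windows of Prom1, and so in 2 of the 7 genes, where 2.09% of 32851 windows and 2.35% of genes hold it. The GC box was found in 6 of the 7 genes, where 38.2% of genes hold it, and the CACCTG E-box in 5 of 7, where 22.6% do. AP-1 was found in 3 of 7 genes (8.97% of genes), TEAD and TATA in 1 each (16.6% and 15.7%) and the HNF1 half-site in 0 (8.24%). The 11 windows had a median GC content of 57.0% and a median of 10 CpG, where all windows had 52.7% and 7. They also gave more windows per gene, 11 for 7 genes, where all 32851 windows cover 27025 genes. The motif shares were adjusted for neither. A match describes the letters in these windows and was not tested for binding.

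The genes next to the 9 on their chromosomes were also looked at. The nearest tested gene on each side gave 18 neighbours, with a median log2 fold change of 0.09. Of these edgeR called 0 higher and 0 lower, where it called 2.32% and 1.37% of all genes tested. DESeq2 called 2 higher, Trim46 and Lgr5, where it called 613 genes higher in all, and limma-voom called 0. At an unadjusted p under 0.05 there were 4. The share of all genes at that level was not taken, so nothing is read from this count. The 4 were Lgr5 beside Tspan8 at 230 kb, Trim46 beside Muc1 at 0.796 kb, Gm10073 beside Cdh1 and Vwf beside Cd9. Trim46 was at 0.364 and 1.39 CPM in the WT and KO groups, with a log2 fold change of 1.84 (SE 0.62, edgeR adjusted p = 0.128). Lgr5, a receptor of Wnt-responsive cells, was at 12.6 and 20.3 CPM, with 0.69 (SE 0.22, edgeR adjusted p = 0.108). Ezr overlaps Sytl3 on the other strand, which the strand-specific counting keeps apart. Prom1 and Ddr1 each overlap 1 predicted gene on their own strand, where reads shared by both genes are left uncounted.

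By the likeness rule the genes closest to the mean profile of the 9 over the 8 libraries were Pkhd1, Syt7, Dcdc2a, Spp1 and Selenbp2. Their log2 CPM, each less its own mean, differed from that profile by a root mean square of 0.130, 0.152, 0.180, 0.193 and 0.193. Among the 9 themselves the same measure ran from 0.130 for Cd24a to 0.759 for Tspan8. These 5 genes thus lay nearer to the mean profile than 8 of its own 9 genes did. The rule picked them as the smallest differences among the other genes it admitted, so this nearness is no separate result. Pkhd1 encodes fibrocystin, a ciliary protein of bile duct cells, and was at 9.05 and 25.2 CPM in the WT and KO groups. Spp1 encodes osteopontin and was at 43.1 and 166 CPM. Syt7 was at 1.45 and 4.70 CPM, Dcdc2a at 4.95 and 17.9 CPM and Selenbp2 at 6.64 and 21.7 CPM. The mean profile was lowest in WT replicate 2, at −1.03, and highest in KO replicate 3, at 1.13, and WT replicate 3, at −0.44, was the highest of the WT libraries.

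Lists of related genes were compared over all genes tested, where 2.32% were called higher and 1.37% lower in the libraries labelled KO. These lists and the marker lists were drawn up with earlier results of these data known. Their counts and p-values are therefore a description and no independent test. Of 20 other markers of bile duct epithelium 15 were tested, 8 rose, 1 fell and the other 6 did not pass. Their median log2 fold change was 1.02. Without WT replicate 3, 10 rose and 1 fell. Leaving out that library also took the calls over all genes from 340 to 710 higher and from 201 to 534 lower. Counts without WT replicate 3 in this and the later lists therefore have a larger background. Cftr, the apical chloride channel, rose by 3.07 (SE 0.45, adjusted p = 0.00204), Krt7 by 2.28 (SE 0.33, adjusted p = 0.00194), Spp1 by 1.94 (SE 0.21, adjusted p = 0.00163) and Pkhd1 by 1.47 (SE 0.14, adjusted p = 0.000109), all in edgeR's quasi-likelihood test. The 1 that fell was Slc10a2, the apical sodium-dependent bile acid transporter, at −1.15 (SE 0.27, edgeR adjusted p = 0.0439). Its call was lost without WT replicate 1, 2 or 4, without KO replicate 2, 3 or 4, among the 4-digit animals alone, with the series as a covariate and without the filter on low counts. Aqp1, a water channel also made by endothelium, was at 129 ± 6.02 and 140 ± 10.5 CPM (SD, n = 4 each) and was not called.

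Of 30 other surface and junction genes of simple epithelia 28 were tested, 9 rose, 0 fell and the other 19 did not pass. Their median was 0.64. Those with the smallest p were Spint1 (log2 fold change 2.58, SE 0.33) and St14 (2.01, SE 0.31), a membrane protease inhibitor and the protease matriptase that it inhibits, Cldn7 (2.04, SE 0.34), a claudin that binds EPCAM, and the integrin chain Itgb6 (3.39, SE 0.59). Their edgeR adjusted p was 0.000902, 0.00276, 0.00447 and 0.00587. Itgb6 was low, from 0.116 ± 0.119 to 1.29 ± 0.423 CPM (SD, n = 4 each), and it too passed the filter only through the libraries labelled KO. Among genes of the list at higher levels, the tight junction genes Cgn, at 25.0 and 43.2 CPM, and Ocln, at 21.4 and 30.4 CPM, rose. The tight junction genes Cldn3, at 67.8 and 92.2 CPM, Lsr, at 99.7 and 132 CPM, and F11r, at 77.5 and 76.5 CPM, and the desmosomal gene Dsp, at 75.1 and 74.5 CPM, were not called. With single libraries left out 6 to 12 of this list rose, the highest count being without WT replicate 3. The count over all genes was highest there too, at 710.

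The partners and relatives of the 9 genes were counted in the same way. Among 22 tested members of the tetraspanin family other than Tspan8 and Cd9, 1 rose and 1 fell, with a median log2 fold change of 0.03. Cd63, a tetraspanin of late endosomes, rose from 1.97 ± 0.668 to 4.68 ± 0.819 CPM, and Cd81, a very abundant tetraspanin of hepatocytes, fell from 262 ± 33.0 to 191 ± 14.4 CPM (SD over 4 animals each). Their edgeR adjusted p was 0.0180 and 0.0317. The call of Cd63 was lost without WT replicate 2 or KO replicate 2 or 4. That of Cd81 was lost without WT replicate 2 or 4 or any 1 KO library and among the 4-digit animals, and without WT replicate 3 there were 2 calls in each direction. DESeq2 called 3 higher and 2 lower, and without the filter on low counts or with a replicate block edgeR called 2 in each direction. With a stricter filter or the series as covariate edgeR called 2 higher and 1 lower. Of 7 partners of tetraspanins 1 rose, the integrin chain Itga3, from 6.21 ± 1.21 to 11.2 ± 2.26 CPM (edgeR adjusted p = 0.0179). It was not called without WT replicate 2 or KO replicate 3 or 4 or among the 4-digit animals, and 2 of the 7 rose without WT replicate 3.

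Of 11 tested catenins, cadherins and nectins, the proteins with which E-cadherin works, edgeR called 0, with a median of 0.0. Unadjusted, 3 were under 0.05. DESeq2 called 1 higher, limma-voom called 0, and edgeR called 1 higher without WT replicate 3 and 1 higher among the 4-digit animals. It was Nectin3 each time, at 63.9 ± 14.9 and 88.0 ± 7.47 CPM. Ctnnb1, encoding beta-catenin, was at 219 ± 22.6 and 248 ± 27.9 CPM, and Cdh2, the N-cadherin gene of hepatocytes, at 92.0 ± 7.51 and 78.7 ± 8.76 CPM (SD, n = 4 each). Cdh3, the P-cadherin gene, was at 0.297 ± 0.229 and 0.840 ± 0.230 CPM (log2 fold change 1.56, SE 0.55, edgeR adjusted p = 0.141). Among 13 genes of ezrin's relatives and partners 1 fell, Scyl3, from 36.6 ± 3.27 to 27.2 ± 2.05 CPM (edgeR adjusted p = 0.0282), which was lost without WT replicate 1, 2 or 4, without KO replicate 1, 3 or 4 and among the 4-digit animals, while the count without WT replicate 3 was 1. Radixin (Rdx), the main ezrin relative of hepatocytes, was at 247 ± 16.0 and 259 ± 23.6 CPM, and moesin (Msn), that of endothelium and leukocytes, at 30.8 ± 2.58 and 37.2 ± 5.65 CPM. Per length, Rdx was at 51.1 RPKM in the libraries labelled WT, where Ezr was at 1.82.

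Of 7 genes around DDR1, namely its relative Ddr2 and 6 collagen chains of which several are ligands, 6 rose and 0 fell, with a median log2 fold change of 0.62. Ddr2, the relative made by mesenchymal cells, rose by 0.51 (SE 0.13, edgeR adjusted p = 0.0467). Col4a1, of basement membranes, rose by 0.62 (SE 0.09), Col1a2 by 0.67 (SE 0.12) and Col1a1, of fibrillar matrix, by 1.0 (SE 0.19), with edgeR adjusted p = 0.00222, 0.00770 and 0.0103. Leaving out WT replicate 2 or KO replicate 4, or keeping the 4-digit animals only, brought the count to 3, and without WT replicate 3 it was 6. Of the transmembrane mucins beside Muc1, 0 of 7 were tested. Muc13, Muc15 and Muc20 had no reads, Muc3a had 3 and Muc4 25 over all libraries, and Muc16 and Muc21 were not matched. Among 8 proteases that cut EPCAM or E-cadherin edgeR called 0, with 0 at an unadjusted p under 0.05 and 0 by DESeq2 or limma-voom. Among 6 lectins and siglecs that bind CD24 or mucins edgeR also called 0, with 2 at an unadjusted p under 0.05 and 0 by DESeq2 or limma-voom.

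**Figure D5:**
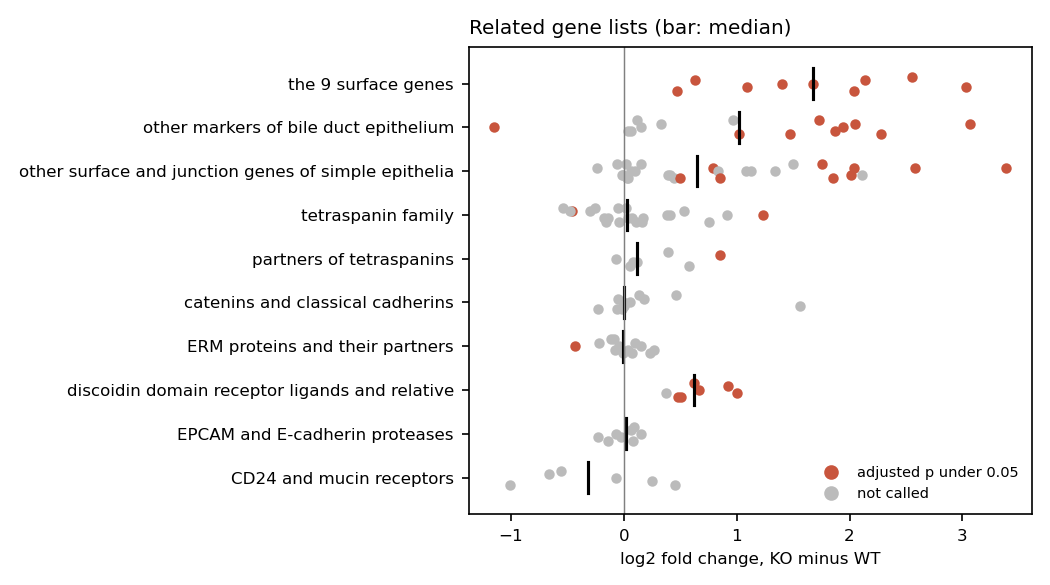
Log2 fold change, KO minus WT, of the 9 surface genes and of each tested gene of the related lists, with red points for an adjusted p under 0.05 and bars for the list medians. The medians are 1.68 for the 9 genes, 1.02 for other duct markers and 0.64 for other epithelial surface genes, and 0.03 for other tetraspanins. The mucin list is not drawn because none of its genes was tested.

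Markers of other cells that carry some of the 9 proteins were measured beside them. Of 10 fibroblast and stellate cell markers, which share Col1a1 and Col3a1 with the collagen list, 4 rose, Cygb, Col1a1, Lum and Col3a1 (4 also with WT replicate 3 left out, but 2 without WT replicate 2 or KO replicate 1, 3 or 4 and among the 4-digit animals), and their sum was 384 to 424 CPM in the libraries labelled WT and 469 to 556 CPM in those labelled KO. Of 6 matched mesothelial markers, 5 of them tested, 1 rose, Gpm6a, and their sum was 3.0 to 4.99 and 5.30 to 9.83 CPM. The other 4 tested mesothelial markers were low and not called, Msln at 0.632 and 0.644 CPM, Upk3b at 0.686 and 0.672 CPM, Wt1 at 0.606 and 0.757 CPM and Lrrn4 at 0.352 and 0.595 CPM. The median log2 fold change of the 5 was 0.31. The Gpm6a call was lost without WT replicate 2 or 4, without KO replicate 1, 3 or 4 and among the 4-digit animals. The part of these cells in the values of the 9 genes was not tested.

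The remaining marker lists had 0 calls in edgeR over the 8 libraries. Their sums in the libraries labelled WT and KO were 350 to 409 and 386 to 424 CPM for 10 endothelial markers, 391 to 468 and 403 to 530 CPM for 10 Kupffer cell and macrophage markers, and 10.3 to 22.4 and 8.55 to 12.4 CPM for 10 lymphocyte markers. At an unadjusted p under 0.05 there were 2, 1 and 1 of them, and 2 of 10 hepatocyte markers. For other blood cells the sums were 2.22 to 7.69 and 1.91 to 4.18 CPM for 8 neutrophil markers, 3.65 to 5.10 and 2.78 to 4.26 CPM for 7 platelet markers, and 11.5 to 24.2 and 11.8 to 15.9 CPM for 7 matched erythroid markers. At an unadjusted p under 0.05 there were 1, 0 and 2 of these. The platelet genes Gp9 and Gp1bb and the erythroid gene Epb42 had no reads. DESeq2 called 1 lymphocyte marker lower, Ighm, edgeR called 1 lower without WT replicate 3, and DESeq2 and limma-voom called no other marker of these 7 lists. Of 8 pancreatic acinar markers Cela3b, Cpb1, Pnlip and Ctrb1 had no reads, and their sums were 4.05 to 6.11 and 3.91 to 7.07 CPM. Of 6 markers of gallbladder and duct glands Pdx1, Muc5b and Muc6 had no reads, and their sums were 3.165 to 4.37 and 3.95 to 4.35 CPM. In each of these 2 lists 1 marker was tested, Cela1 (4.90 and 4.96 CPM) and Sox17 (3.59 and 4.08 CPM). Neither reached an unadjusted p of 0.05.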

How the data were processed

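Reads were counted per gene by the authors, per the file headers, with featureCounts 1.5.1 against the Ensembl 81 annotation on mm10, with strand setting 2 and a minimum mapping quality of 1. Multi-mapping reads were left out, since no option for them is recorded. The submitters' processing notes also name GSNAP and bcl2fastq 2.19.1. The deposited values are raw counts, 1 column per library. The 92 spike-in rows held 0 counts and were not used. Chi-square per degree of freedom was 16.7 or more for every pair of libraries, so none was a repeat.

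Symbols were matched by gene identifier (45143 of 45706 rows). In R 4.3.3 with edgeR 4.0.16, genes passed filterByExpr (minimum count 10), libraries were scaled by TMM, and groups were compared by the quasi-likelihood test with robust estimation and Benjamini-Hochberg adjustment over 14645 genes, with calls at an adjusted p of less than 0.05. Each SE comes from the F statistic. CPM and RPKM use TMM-scaled libraries, and log2 CPM a prior count of 2. The series of animal numbers was tested with genotype in the model. The edgeR steps were tested on simulated data. Alternatives used DESeq2 1.42.0 and limma 3.58.1 (voom), RLE scaling and other filters. The p-values set a difference between groups against the spread among the animals within groups, 8 animals in all. Nothing says how the mice were housed or processed, so whether either differed between the groups is not known.

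The 9 genes and all lists were chosen with earlier results of these data known. Named were the 9 genes, Elavl1, up to 4 called genes of each list by p (or the 2 smallest p), relatives of a gene in short lists, and the 5 genes nearest to the mean profile. Other named genes, among them those given as examples of high or unchanged level, chromosomal neighbours and markers, were chosen after their values were seen.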

Additional observations from a re-analysis of the deposited data

How the results depend on the processing

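The number of the 9 genes called higher in the libraries labelled KO was 9 with RLE scaling, a stricter filter, DESeq2, the replicate block and the series as covariate. It was 8 without a filter (Prom1 lost), 8 with limma-voom (Cdh1 lost), 7 among the 4-digit animals (Cdh1 and Cd9 lost) and 5 to 8 with 1 library left out. It was 5 without WT replicate 2 or KO replicate 4 and 6 without WT replicate 1 or KO replicate 3. The choice of the genes used this contrast, so these counts say nothing of stability. Their median log2 fold change was 1.34 among the 4-digit animals and 1.56 to 1.87 with 1 library left out. Over all genes the count higher, 340, became 613 with DESeq2, 215 among the 4-digit animals and 151 to 710 with 1 library left out, the highest without WT replicate 3. The count lower, 201, became 328 without a filter, 495 with DESeq2, 308 with the series as covariate and 71 to 534 with 1 library left out, again highest without WT replicate 3. The cause was not tested. Of the 9 genes, the number that differed between the series was 1 without a filter, 1 with DESeq2 and 0 to 0 with 1 library left out. The replicate block gave 353 genes higher and 211 lower over all genes and changed the call of none of the 9. It turned the series difference of Cdh1 to −0.27 (SE 0.23), which there rests on replicate 4 alone. Deviations from the group means in same-numbered animals correlated at 0.0255, 0.0251, 0.122 and −0.147 for numbers 1 to 4, and not every animal correlated best with its own number, so the numbers were not taken to pair the animals. Among animals 98 to 100, where WT is 1 library, only values were given. The interaction of genotype and series was added after seeing the data. Depth limits Muc1 most, with 5 to 13 reads in the libraries labelled WT.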
